A study of Mus musculus with 5 samples.

Results

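The small leucine-rich proteoglycans (SLRPs) are secreted proteins of the extracellular matrix whose leucine-rich repeats bind collagen fibrils and set how fibrils grow and pack, and most carry glycosaminoglycan chains. Several members also bind transforming growth factor beta. In muscle and tendon they are made mainly by the cells of the connective tissue, and decorin and biglycan are the members best known from the sheaths around myofibers. The 8 genes described here were chosen by name among the 32285 gene rows of the deposited count matrices, and all 8 had a row in each of the 5 libraries. They were Dcn (decorin), Bgn (biglycan) and Aspn (asporin) of class I, Lum (lumican), Fmod (fibromodulin), Kera (keratocan) and Prelp of class II, and Ogn (osteoglycin, or mimecan) of class III.

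The study profiled RNA and open chromatin in the same single nuclei of mouse hindlimb skeletal muscle to follow how muscle forms and matures, and to ask what the loss of Cacna1s does to it. Cacna1s encodes the voltage sensor of excitation-contraction coupling in skeletal muscle. There was 1 library for each group: Cacna1s-/- at E18.5 (called KO, from 26 pooled hindlimbs), and wild type (WT) at E14.5 (56 hindlimbs), E18.5 (14), P5 (8) and adult (4, aged 2 months). All mice were of the C57BL/6N background, the null allele removed the coding region in every cell of the body, skin and bone were dissected away, and nuclei sorted for and against the myonuclear protein PCM1 were combined before loading. Because each group was a single library of pooled limbs, no difference between groups could be tested against the spread of biological replicates.

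Nuclei were grouped by marker RNA and not by clustering. The levels of 4 muscle genes (Ttn, Neb, Trdn and Ryr1) were summed in each nucleus, and a nucleus with less than 1.5% of its unique molecular identifiers (UMIs, counted RNA molecules) from these genes, or 4% in the adult library, was taken as below the muscle cut. Below that cut, nuclei with at least 1 UMI of Pdgfra, a receptor that marks fibroblast-like cells of the connective tissue, are called Pdgfra-positive, and nuclei with at least 1 UMI of Tnmd, which encodes the tendon protein tenomodulin, are called Tnmd-positive. Nuclei above the cut are called muscle-RNA-high. There were 1033 Pdgfra-positive nuclei in KO, and 1325, 1441, 840 and 138 in WT, in the order E14.5, then E18.5, P5 and adult. There were 109 Tnmd-positive nuclei in KO, and 108, 494, 301 and 2 in WT at those stages, so the adult library gave no usable Tnmd-positive value. Nuclei with UMIs of both genes belonged to both gates, and they numbered 65 in KO and 59, 205, 106 and 0 in WT in the same order.

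Values are given as CPM, a gene's UMIs per 1000000 UMIs summed over the nuclei of a gate, with an exact Poisson 95% interval. Ratios of 2 sums carry an exact 95% interval conditional on their total. These intervals cover counting error only and say nothing of differences between animals, limbs or library preparations. A ratio of at least 2, or of at most 0.5, is called a 2-fold difference, and the share of all genes with at least 100 UMIs in the 2 sums that reached it is given as the background.

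After filtering 3228 nuclei remained in KO, and 3747 to 5108 in each WT library. Their median depth was 7821 UMIs in KO, against 5926 in WT E18.5, and it was 2884.5 UMIs in the adult. Pairs of libraries shared 17 to 47 barcodes. In muscle-RNA-high nuclei, Cacna1s was at 0.731 CPM in KO (8 UMIs), against 189 CPM in WT E18.5, which matches the labels. The 7 tenocyte markers other than Tnmd summed to 1263 CPM in Tnmd-positive and 321 CPM in Pdgfra-positive nuclei of KO, and to 1138 against 370.1 CPM at E14.5, 1409 against 462 CPM at E18.5 and 1919 against 484 CPM at P5. The Tnmd gate thus held tendon markers in the 4 libraries where it was populated. The muscle genes made up 0.0470% to 0.202% of the UMIs of Pdgfra-positive nuclei in the 5 libraries.

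The 8 genes lie in 3 clusters and 1 single locus of the mm10 genome, the build of the files. Dcn (chr10:97479609-97518143), Lum (chr10:97565128-97572703) and Kera (chr10:97606879-97613692) follow each other on the plus strand of chromosome 10 with gaps of 47.0 and 34.2 kb. Aspn (chr13:49544443-49567565) and Ogn (chr13:49608046-49624501) lie 40.5 kb apart on the plus strand of chromosome 13. Prelp (chr1:133910304-133921414, minus strand) and Fmod (chr1:134037254-134048277, plus strand) lie 115.8 kb apart, and Bgn (chrX:73483602-73495933, plus strand) stands alone. Cenpp (chr13:49464023-49652785) runs across Aspn and Ogn on the opposite strand and Gm15851 across part of Prelp, and how strand was used in counting is not stated in the sources used here. Reads of these genes and of the partner on the other strand may therefore not have been told apart.

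Promoter sequence (250 bases before to 50 after the RefSeq start, GRCm38.p6) was at hand for 6 of the 8 genes, Aspn, Bgn, Fmod, Kera, Ogn and Prelp. The 3 printed here are those whose chromatin is described below, Ogn because its start was accessible in muscle-RNA-high nuclei, Fmod because its start was more accessible in Tnmd-positive nuclei, and Prelp because peaks inside it differed in KO. Capitals mark each E-box, CANNTG, the letters bound by basic helix-loop-helix factors such as MyoD, scleraxis and Twist. The Ogn window (chr13:49607765-49608064, plus strand), the Fmod window (chr1:134037004-134037303, plus strand) and the Prelp window (chr1:133921352-133921651, minus strand) read 5′ to 3′ as follows.
Ogn: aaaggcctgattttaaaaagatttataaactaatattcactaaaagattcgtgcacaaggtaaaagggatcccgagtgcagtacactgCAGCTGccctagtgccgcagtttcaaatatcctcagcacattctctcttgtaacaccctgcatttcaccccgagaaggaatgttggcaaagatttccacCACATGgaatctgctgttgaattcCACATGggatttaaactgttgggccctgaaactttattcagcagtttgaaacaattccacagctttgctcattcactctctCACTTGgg
Fmod: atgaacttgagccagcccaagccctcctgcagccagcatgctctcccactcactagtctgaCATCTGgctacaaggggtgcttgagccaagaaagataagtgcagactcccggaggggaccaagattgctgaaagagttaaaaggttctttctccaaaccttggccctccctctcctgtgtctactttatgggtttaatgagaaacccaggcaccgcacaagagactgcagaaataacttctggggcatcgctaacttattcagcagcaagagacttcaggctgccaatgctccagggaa
Prelp: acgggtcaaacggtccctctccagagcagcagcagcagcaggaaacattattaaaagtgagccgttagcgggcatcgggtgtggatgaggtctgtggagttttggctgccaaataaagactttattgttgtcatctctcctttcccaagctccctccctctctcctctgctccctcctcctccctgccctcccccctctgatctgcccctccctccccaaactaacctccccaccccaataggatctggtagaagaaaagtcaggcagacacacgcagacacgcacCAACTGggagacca

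The Ogn window held 4 E-boxes, with first bases at -162, -63, -39 and +43 from the start, and the first of them was CAGCTG, the form favoured by MyoD and myogenin. Of 32851 mouse promoters of the same length, 72.3% held at least 1 CANNTG, 6.49% held at least 4, and 16.3% held CAGCTG, which is itself a CANNTG. The Ogn window also held GGAATG, the core letters of TEAD sites, at -86, which 14.7% of all promoters held on either strand, and TATAAA at -227 with its reverse complement overlapping it at -229, which 13.6% held. Fmod and Prelp had 1 E-box each, at -189 and +37, and neither window held the other letters searched. Bgn had 1 E-box, a CAGCTG at -102, Aspn had 2, and Kera had none. The Ogn and Prelp windows differed in base composition, with 42.3% and 55.3% G and C against a median of 52.7% over all promoters. Such matches describe the sequence only.

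In WT Pdgfra-positive nuclei, 6 of the 8 members were at least 2-fold higher at E18.5 than at E14.5, and Lum and Ogn were 1.56- and 1.67-fold higher. The median member differed by 1.76 on the log2 scale, against 0.04 over the 11111 genes measured, of which 7.02% were at least 2-fold higher. No member was 2-fold apart between P5 and E18.5, where 8.66% of 10756 genes were, and between adult and P5 Bgn, Aspn and Fmod were at least 2-fold lower of the 6 members measured, against 21% of 7108 genes. In the adult Pdgfra-positive nuclei the same 7 tenocyte markers summed to 119 CPM, against 484 CPM at P5, and all chondrocyte and macrophage markers were at 0. The part of this in the adult values was not tested.

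Of class I, decorin binds fibrillar collagen and growth factors. Dcn was at 192, 484, 961 and 724 CPM in Pdgfra-positive nuclei from E14.5 to adult, so its highest WT value was at P5. It was 2.52-fold higher at E18.5 than at E14.5 (95% interval 2.36 to 2.68) and 1.99-fold higher at P5 than at E18.5 (1.91 to 2.07), and the adult to P5 ratio was 0.754 (0.654 to 0.865). Biglycan, its closest relative, peaked earlier. Bgn was at 27.9, 139.9, 87.5 and 13.6 CPM at the 4 stages, and the adult value rested on 4 UMIs. It was 5.01-fold higher at E18.5 than at E14.5 (4.28 to 5.90), 1.60-fold lower at P5 than at E18.5 (1.44 to 1.78) and 6.43-fold lower in the adult than at P5 (2.495 to 23.7). The opposite directions of Dcn and Bgn between E18.5 and P5 also appeared in Tnmd-positive nuclei, in which Dcn was 2.89-fold higher at P5 (2.68 to 3.13) and the Bgn ratio was 0.656. Asporin competes with decorin for binding to collagen. Aspn was at 97.4, 385, 562 and 88.4 CPM, and was 3.95-fold higher at E18.5 than at E14.5 (3.63 to 4.31) and 6.36-fold lower in the adult than at P5 (4.33 to 9.76). The adult interval of Aspn (57.7 to 129.5) included its E14.5 value, and the adult interval of Dcn (630.1 to 828) did not include that of Dcn.

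Of class II, lumican regulates the thickness of collagen fibrils, as known best from the cornea. Lum differed the least in fold terms among the class in Pdgfra-positive nuclei, at 47.2, 73.5, 106 and 71.4 CPM from E14.5 to adult, with overlapping intervals at E18.5 (68.3 to 78.9) and adult (44.2 to 109). Fibromodulin binds the same collagen region as lumican and is abundant in tendon. Fmod was at 3.41, 27.3, 21.9 and 3.4 CPM, 8.00-fold higher at E18.5 than at E14.5 (5.13 to 13.1), and the adult value was a single UMI. Without the nuclei that were also Tnmd-positive, Fmod was at 2.91 and 8.79 CPM at E14.5 and E18.5, and the ratio was 3.02 (1.77 to 5.47). Keratocan, a keratan sulfate proteoglycan known from the cornea and from tendon, was at 3.90, 11.3 and 7.503 CPM at E14.5, E18.5 and P5. Kera had 0 of 294155 UMIs in the adult Pdgfra-positive nuclei, which allows up to 10.2 CPM (3 UMIs). With the same nuclei left out, Kera was at 3.08, 2.41 and 0.483 CPM at E14.5, E18.5 and P5, and the E18.5 to E14.5 difference turned round (ratio 0.782). PRELP anchors basement membranes to the tissue beneath. Prelp had only 6 UMIs at E14.5 (0.974 CPM), and was at 11.7, 10.5 and 20.4 CPM at E18.5, P5 and adult. It was 12.0-fold higher at E18.5 than at E14.5 (5.36 to 33.4), whereas the adult to P5 ratio of 1.95 rested on 6 adult UMIs and its interval spanned 1 (0.685 to 4.53).

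Osteoglycin, the class III member, was first described in bone and is released by muscle and connective tissue. Ogn stood between the patterns above, at 87.0, 144.9, 154 and 102 CPM in Pdgfra-positive nuclei from E14.5 to adult. The P5 to E18.5 ratio was 1.07 (0.976 to 1.16), so these neighbours were not told apart by counting error, and the adult interval (68.8 to 146) overlapped those of the other 3 stages, though the adult to P5 ratio of 0.661 had an interval below 1 (0.443 to 0.951). In Tnmd-positive nuclei Ogn was at 181, 227 and 329 CPM at E14.5, E18.5 and P5, with a P5 to E18.5 ratio of 1.45 (1.31 to 1.61). In that gate 3 of the 7 members measured (Bgn, Aspn and Fmod) were at least 2-fold higher at E18.5 than at E14.5, against 8.32% of 6720 genes, and only Dcn was at least 2-fold higher at P5 than at E18.5, against 2.5% of 7670 genes.

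**Figure D1:**
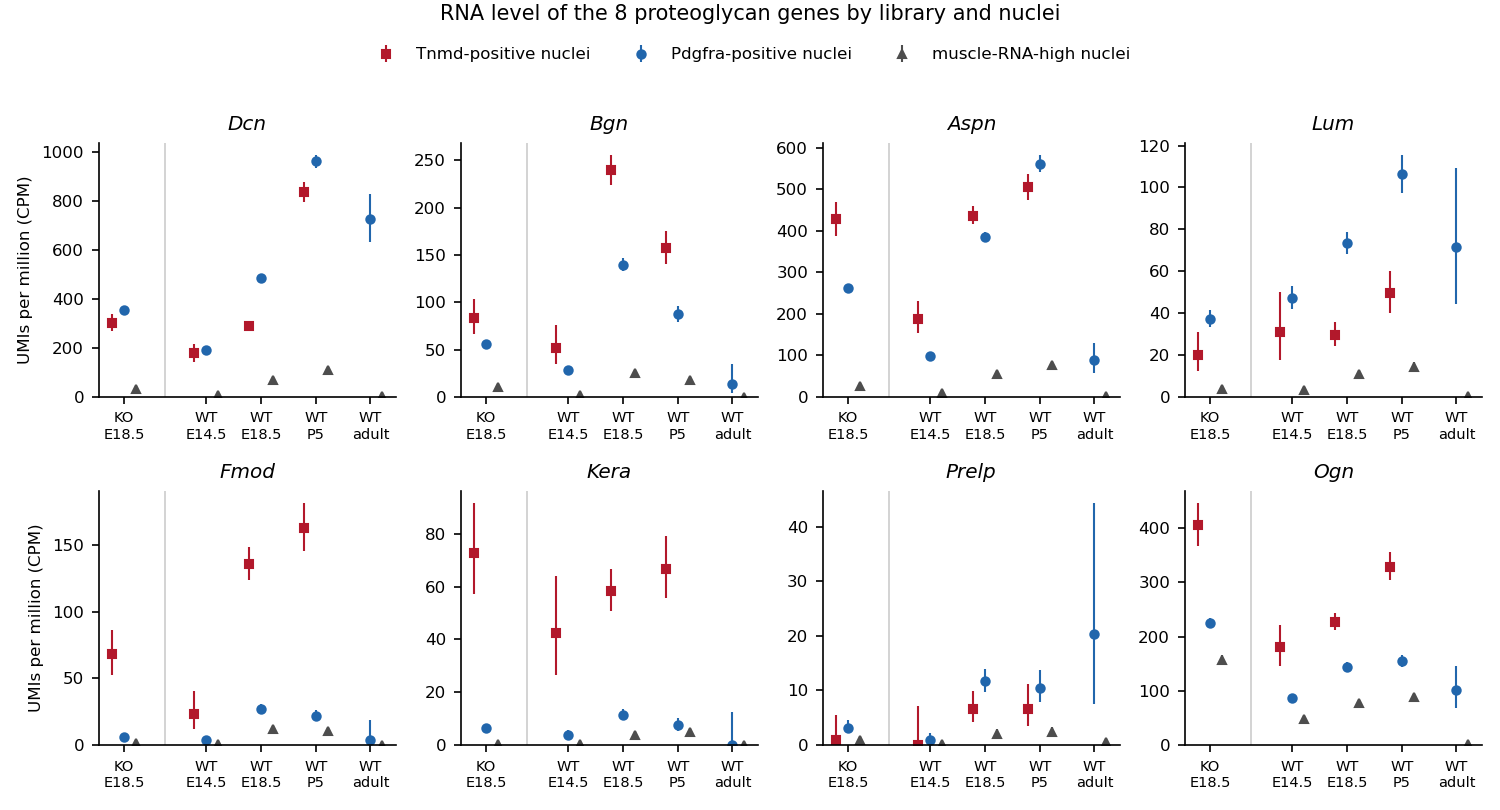
Level of each of the 8 genes (CPM, linear axis, 1 panel per gene) in Tnmd-positive (red squares), Pdgfra-positive (blue circles) and muscle-RNA-high nuclei (grey triangles), with KO E18.5 at the left of the line and the WT stages from E14.5 to adult at its right. Bars are exact 95% counting intervals of 1 library each. Dcn was highest at P5 among the WT libraries, at 961 CPM in Pdgfra-positive nuclei, Bgn at E18.5, at 139.9 CPM, and Ogn was the gene whose KO values (225 CPM in Pdgfra-positive nuclei) lay above WT E18.5 in all 3 gates drawn.

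Genes that act with the SLRPs were counted as whole lists over the same stages. Of 11111 genes in Pdgfra-positive nuclei, 7.02% were at least 2-fold higher at E18.5 than at E14.5, so none in a short list would not be unusual. Of 12 fibrillar and fibril-associated collagens 7 were (median 1.30 on the log2 scale), with ratios of 6.10 for Col1a1, 2.93 for Col1a2 and 2.09 for Col3a1. Of 15 collagen processing and cross-linking genes 7 were, including Pcolce at 5.69-fold, which encodes an enhancer of procollagen cleavage (median 0.84). None of 18 enzymes that build glycosaminoglycan chains was, and Csgalnact1, which starts chondroitin chains, was at a ratio of 0.489 (median 0.14). Of 9 measured genes of transforming growth factor beta signalling, Ltbp4 was at 2.90 and Ltbp1, another latency protein, at 0.241. Of the 4 other SLRPs measured, Ecm2 and Podn were 2.12- and 2.56-fold higher at E18.5.

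Fmod and Kera were set apart from the other 6 members by their level in Tnmd-positive nuclei. To keep the gates disjoint, Tnmd-positive nuclei were compared with Pdgfra-positive nuclei without a Tnmd UMI of the same library. Kera was at 72.9 CPM in Tnmd-positive nuclei against 1.73 CPM in KO, and at 42.4 against 3.08 CPM at E14.5, 58.1 against 2.41 CPM at E18.5 and 66.7 against 0.483 CPM at P5. Those ratios were 42.2 in KO (24.0 to 79.3). In WT the Kera ratio was 13.8 at E14.5, with an interval of 7.04 to 27.2, 24.2 at E18.5, with an interval of 15.3 to 40.4, and 138 at P5, the last against only 2 UMIs (37.5 to 1153). Fmod was at 67.9 against 3.22 CPM in KO, and at 23.1 against 2.91 CPM, 136 against 8.79 CPM and 163 against 6.52 CPM at E14.5, E18.5 and P5. Its ratios were 21.1 in KO (13.4 to 34.0) and 7.95 (3.46 to 17.7), 15.5 (12.1 to 20.1) and 25.0 (16.8 to 38.5) at the 3 WT stages. All 8 of these intervals lay above 3, so the enrichment of Fmod and Kera with Tnmd was present in KO and in each WT library that could be compared.

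The other members took both directions. Ogn was 1.88-fold higher in Tnmd-positive nuclei in KO, and 2.24-, 1.79- and 2.61-fold higher at E14.5, E18.5 and P5. Bgn was 1.54-fold higher in KO, and 1.90-, 2.07- and 1.99-fold higher at the WT stages. Lum went the other way in every one of these libraries, with ratios of 0.520 in KO and 0.628, 0.370 and 0.437 in WT. Dcn ratios lay between 0.553 and 0.906 in the 4 libraries, and Aspn ratios between 0.890 (P5) and 2.02 (E14.5). Prelp was lower too, at 0.514 at E18.5, 0.579 at P5 and 0.299 in KO, though the KO value was 1 UMI. At E18.5 Bgn, Fmod and Kera were at least 2-fold higher, 3 of 8 members against 4.08% of 10160 genes, and Lum was at least 2-fold lower, against 4.11%. The 205 nuclei of WT E18.5 that carried both marker RNAs lay between the gates for Kera (49.1 CPM) and Fmod (106 CPM).

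**Figure D2:**
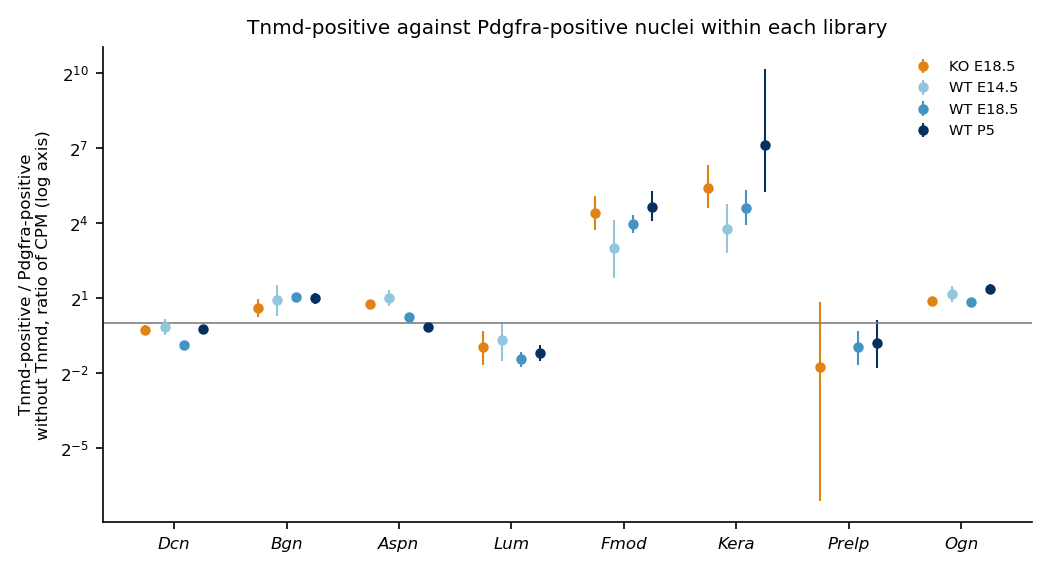
Ratio of Tnmd-positive nuclei to Pdgfra-positive nuclei without a Tnmd UMI for each gene (log axis), with 1 point per library (KO E18.5, then WT E14.5, E18.5 and P5) and exact 95% counting intervals. Kera (13.8 to 138) and Fmod (7.95 to 25.0) lay far above 1 in all 4 libraries, and Lum (0.370 to 0.628) lay below 1 in all 4.

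The comparison of KO with WT at E18.5 asked how the matrix genes stood in fetal limbs without the voltage sensor. In Pdgfra-positive nuclei 7 of the 8 members were lower in KO and Ogn was higher. Bgn, Fmod and Prelp were at least 2-fold lower, against 3.7% of 11500 genes, and the median member ratio was -0.91 on the log2 scale, against -0.07 over those genes.

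Fmod was at 5.87 CPM in KO (55 UMIs) and 27.3 CPM in WT E18.5 (280 UMIs) Pdgfra-positive nuclei, a 4.65-fold lower level (3.47 to 6.32). The share of nuclei with an Fmod UMI was 3.87% in KO (2.78 to 5.24, exact binomial) and 9.23% in WT (7.79 to 10.8), although KO nuclei were sequenced more deeply. When each nucleus was thinned to 1000 UMIs, leaving out 0 KO and 10 WT nuclei, the shares were 0.387% and 1.82%. Among nuclei with endothelial markers, which should lack Fmod, 3 of 120 in KO and 2 of 105 in WT had an Fmod UMI, so the KO share was close to that background. Without the nuclei that were also Tnmd-positive, Fmod was at 3.22 CPM in KO and 8.79 CPM in WT, 2.73-fold lower (1.74 to 4.38). Within Tnmd-positive nuclei Fmod was at 67.9 CPM in KO and 136 CPM in WT, 2.00-fold lower (1.55 to 2.62).

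Bgn was at 55.4 CPM in KO and 139.9 CPM in WT Pdgfra-positive nuclei, 2.53-fold lower (2.28 to 2.80). In Tnmd-positive nuclei it was at 83.9 CPM in KO and 239 CPM in WT, 2.86-fold lower (2.28 to 3.62), and the intervals of the 2 ratios overlapped. Prelp was at 3.20 CPM in KO (30 UMIs) and 11.7 CPM in WT (120 UMIs) Pdgfra-positive nuclei, 3.65-fold lower (2.43 to 5.64). A Prelp UMI was seen in 2.61% of KO and 6.45% of WT Pdgfra-positive nuclei, and in 3 of 120 KO (2.50%) and 3 of 105 WT (2.86%) nuclei with endothelial markers, so the KO share was at that background. At P5 the endothelial share of 9.20% was above the Pdgfra-positive share of 5.71%. Lum was at 37.2 CPM in KO and 73.5 CPM in WT, a ratio of 0.506 (0.444 to 0.575) that missed the 2-fold limit. These were the 4 members with the lowest KO to WT ratios in that gate.

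Dcn, Aspn and Kera differed less. Dcn was at 356 CPM in KO and 484 CPM in WT Pdgfra-positive nuclei, a ratio of 0.736 (0.704 to 0.769), and Aspn at 262 and 385 CPM, a ratio of 0.681 (0.647 to 0.716). In Tnmd-positive nuclei, the Dcn ratio was 1.04 (0.916 to 1.19) and the Aspn ratio 0.979 (0.877 to 1.09), so neither was distinguishable from 1 there. Kera was at 6.30 CPM in KO and 11.3 CPM in WT Pdgfra-positive nuclei, a ratio of 0.557 (0.400 to 0.769). Without the nuclei that were also Tnmd-positive, a Kera UMI was seen in 1.03% of KO and 1.54% of WT Pdgfra-positive nuclei. Those intervals overlapped (0.497 to 1.89 and 0.928 to 2.39), so a lower Kera level was not resolved there. In Tnmd-positive nuclei Kera was at 72.9 CPM in KO and 58.1 CPM in WT, a ratio of 1.25 (0.947 to 1.64). Fmod and Kera, both highest in Tnmd-positive nuclei, thus had KO to WT ratios in that gate whose intervals did not overlap.

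Ogn was the exception. It was at 225 CPM in KO and 144.9 CPM in WT Pdgfra-positive nuclei, 1.55-fold higher (1.45 to 1.66), at 405 CPM in KO and 227 CPM in WT Tnmd-positive nuclei, 1.79-fold higher (1.58 to 2.02), and at 158 CPM in KO and 77.0 CPM in WT muscle-RNA-high nuclei, 2.05-fold higher (1.89 to 2.22). An Ogn UMI was seen in 65.8% of KO and 46.9% of WT Pdgfra-positive nuclei, and in 18.9% (16.5 to 21.4) and 12.0% (10.3 to 13.7) after thinning to 1000 UMIs. Among nuclei with endothelial markers the shares were 16.7% of 120 in KO and 3.81% of 105 in WT, and the levels were 37.6 CPM in KO (27.1 to 50.8) and 18.2 CPM in WT (9.41 to 31.8), so the level of Ogn in nuclei that should lack it was also higher in KO, and its part in the result was not tested. In the remaining nuclei below the muscle cut, which had neither marker, Ogn was lower in KO, at 71.1 CPM against 94.95 CPM (ratio 0.749, 0.663 to 0.845). In those remaining nuclei mesenchymal markers summed to 1826 CPM in KO and 3875 CPM in WT, and adipocyte markers to 1044 and 115 CPM. The part of this in the lower Ogn level was not tested. The summed Ogn UMIs per Dcn UMI were 0.633 in KO and 0.300 in WT Pdgfra-positive nuclei, and 1.34 and 0.785 in Tnmd-positive nuclei. In the remaining nuclei with neither marker they were 0.992 and 0.402, so this measure was higher in KO there too.

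In Tnmd-positive nuclei 2 of the 7 members measured (Bgn and Fmod) were at least 2-fold lower in KO, against 5% of 7106 genes, and Prelp had 1 UMI in KO and 24 in WT. Fmod lay at the limit, from 1.27- to 5.22-fold lower over 12 alternatives, and the count of 2 was 1 or 0 in 8 of them. In muscle-RNA-high nuclei Ogn was at least 2-fold higher, against 3.54% of 11511 genes, and the other 5 of the 6 members measured were at least 2-fold lower, against 3.97%, from 2.05-fold lower for Dcn to 9.82-fold lower for Fmod (5.56 to 18.9), and Kera had 4 UMIs in KO and 49 in WT. In nuclei below the cut with neither marker, Lum was 8.66-fold lower (6.27 to 12.2), Dcn 3.30-fold and Aspn 2.91-fold, while Fmod had a ratio of 0.853 (0.523 to 1.41). The mesenchymal and adipocyte marker sums of those nuclei, given above, also differed between KO and WT. Bgn, Prelp, Lum and Fmod had ratios below 1 in all 4 of these gates. The interval of Lum in Tnmd-positive nuclei (0.394 to 1.09) and that of Fmod in nuclei with neither marker (0.523 to 1.41) spanned 1.

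**Figure D3:**
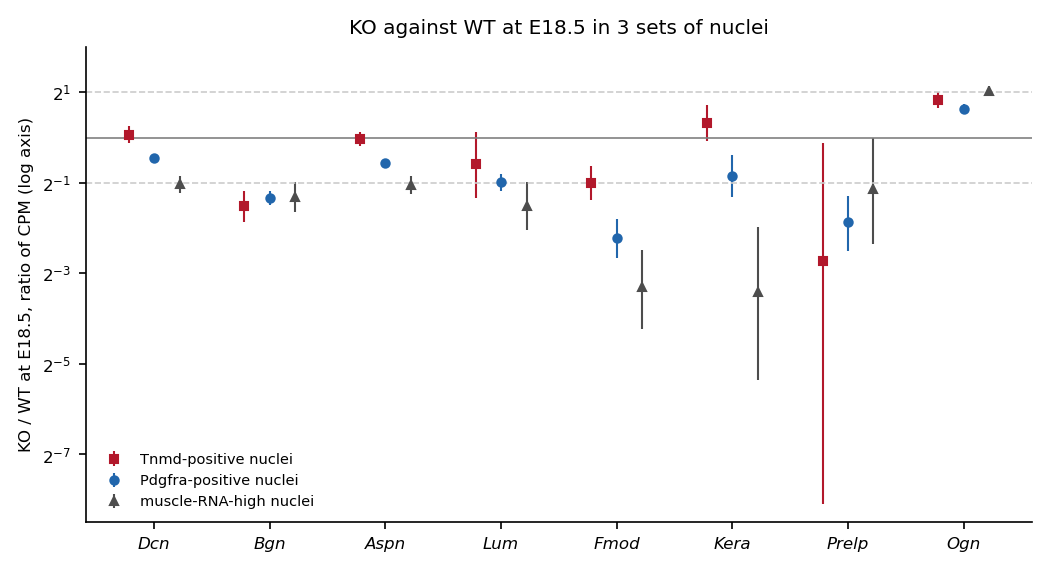
Ratio of KO to WT E18.5 for each gene (log2 axis) in Tnmd-positive, Pdgfra-positive and muscle-RNA-high nuclei, with exact 95% counting intervals and dashed lines at 2-fold in either direction. Ogn lay above 1 in the 3 gates (1.79, 1.55 and 2.05), Bgn lay below 0.5 in all 3, and Dcn and Aspn lay near 1 only in Tnmd-positive nuclei (1.04 and 0.979).

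Markers of other cell types differed between the libraries as well. In Pdgfra-positive nuclei the 9 mesenchymal markers, all detected in both libraries, summed to 5627 CPM in KO and 8829 CPM in WT, the 8 tenocyte markers, again all detected, to 339 and 542 CPM, and the chondrocyte markers (7 of 8 detected in KO, with Snorc at 0) to 33.1 and 118 CPM. Adipocyte markers summed to 368 CPM in KO and 113 CPM in WT, macrophage markers to 311 and 169 CPM, endothelial markers to 95.5 and 60.1 CPM, and cycling markers to 1157 and 868 CPM. In Tnmd-positive nuclei the mesenchymal markers summed to 5999.9 CPM in KO and 12633 CPM in WT, all tenocyte markers to 1544 and 1945 CPM, and the chondrocyte markers to 96.9 CPM (5 of 8 detected) and 257 CPM. Adipocyte markers summed there to 192 CPM in KO (all detected) and 22.6 CPM in WT (3 of 6 detected). Macrophage markers summed to 280 and 326 CPM, endothelial markers to 113 and 114 CPM, and cycling markers to 856 and 773 CPM. Their part in the results for the SLRPs was not tested. When nuclei with at least 2 UMIs of such other cell types were left out, 427 KO and 864 WT Pdgfra-positive nuclei remained, and Bgn was at a ratio of 0.564, Fmod at 0.506 and Ogn at 1.91, so that no measured member was 2-fold apart. Prelp was then at 0.112, from 4 UMIs in KO and 63 in WT, too few to be counted as measured. With no filter on depth, mitochondrial share or ATAC counts, 1247 KO and 1504 WT nuclei entered, 5 members were at least 2-fold lower, and Ogn was at 1.26.

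Of the 12 collagens, all 12 were lower in KO in Pdgfra-positive nuclei (median -0.63 on the log2 scale). Of these 2, Col1a1 at a ratio of 0.335 and Col5a3 at 0.459, were at least 2-fold lower, against 3.7% of 11500 genes. Col3a1 was at 1778 CPM in KO and 2563 CPM in WT (0.694) and Col1a2 at 1455 and 2628 CPM (0.554). In Tnmd-positive nuclei 4 of the 12 were at least 2-fold lower, against 5% of 7106 genes, with Col1a1 at 0.269 and Col1a2 at 0.478 (median -0.72), where Dcn and Aspn had ratios near 1. Of the 15 processing and cross-linking genes 5 were at least 2-fold lower in Pdgfra-positive nuclei (median -0.78), against the same 3.7%. Among them was P4ha3 at 0.231, which encodes a collagen prolyl hydroxylase subunit, while P4ha1 was at 1.19 and Plod2 at 1.05. None of the 18 glycosaminoglycan enzymes (median -0.21) and none of the 10 genes of transforming growth factor beta signalling (median -0.06) was 2-fold apart, with Chsy3 at 0.812 and Tgfbr2 at 0.938. The same was true of the 4 other SLRPs measured, Ecm2 (0.624), Podn (0.573), Tsku (0.850) and Omd (1.01). At so low a share of all genes, counts of none in lists this short do not set them apart from other genes.

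In muscle-RNA-high nuclei Ogn was at 0.700 of its Pdgfra-positive level in KO and at 0.548, 0.532 and 0.577 in WT at E14.5, E18.5 and P5. Dcn was at 0.0928 of its Pdgfra-positive level in KO and at 0.0497, 0.140 and 0.113 in WT. Aspn, Bgn, Lum and Prelp stood at no more than 0.285 in these 4 libraries, but Fmod was at 0.428 and 0.483 at E18.5 and P5, and Kera at 0.346 and 0.656. Ogn was thus the highest of the 8 by this measure in KO, E14.5 and E18.5, and Kera at P5. To leave out nuclei with RNA of connective tissue cells, the muscle-RNA-high nuclei were then restricted to those with no UMI of Pdgfra, Tnmd, Col1a1, Col1a2, Col3a1 or Dcn, an alternative chosen after seeing the data. There were 464 such nuclei in KO and 1178, 544, 541 and 4146 in WT from E14.5 to adult. Ogn was at 146 CPM in these nuclei in KO (134.5 to 158), and at 46.2 (40.8 to 52.2), 80.8 (71.4 to 91.1), 93.1 (83.1 to 103.9) and 0.647 CPM in WT at the 4 stages. The KO to WT E18.5 ratio there was 1.80 (1.56 to 2.09). Relative to Pdgfra-positive nuclei of the same library, Ogn in these nuclei was at 0.648 in KO and at 0.531, 0.558, 0.603 and 0.00635 in WT. The other 6 members that the restriction did not use reached at most 9.37 CPM, the value of Aspn at P5, and Aspn stood at 0.0455 of its Pdgfra-positive level at E14.5 and at 0.00916 to 0.0167 in the other 4 libraries. Nuclei with RNA of other connective tissue genes had been left out, so these low values were partly set by the restriction. Ogn in all muscle-RNA-high nuclei was 87.6-fold lower in the adult than at P5 (56.4 to 144), at 1.02 and 89.0 CPM, and the adult Pdgfra-positive ratio of 0.661 (0.443 to 0.951) was far from that. Such a drop in the adult was not particular to Ogn, since in the same nuclei Aspn was 84.75-fold lower (53.3 to 144), Lum 31.6-fold lower (16.3 to 70.2) and Dcn 20.9-fold lower (17.1 to 25.8). Bgn and Fmod were 117.5- and 104-fold lower, from 3 and 2 adult UMIs (39.7 to 574 and 28.2 to 868). Summed Ogn UMIs per Dcn UMI were 4.78 in KO and 4.99, 1.14, 0.822 and 0.196 in WT muscle-RNA-high nuclei, against 0.633 in KO and 0.453, 0.300, 0.161 and 0.141 in WT Pdgfra-positive nuclei.

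**Figure D4:**
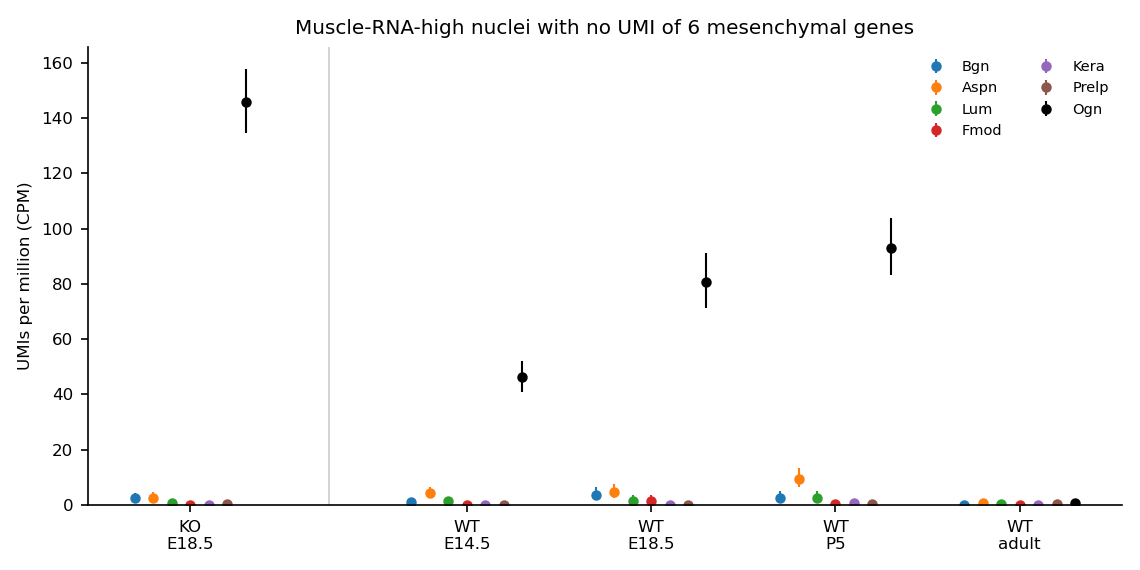
Level of 7 members (CPM) in muscle-RNA-high nuclei with no UMI of Pdgfra, Tnmd, Col1a1, Col1a2, Col3a1 or Dcn, for KO E18.5 and the WT stages from E14.5 to adult, with exact 95% counting intervals. Ogn (black) was at 146 CPM in KO, against 46.2, 80.8, 93.1 and 0.647 CPM in WT. No other member passed 9.37 CPM, which the choice of nuclei partly set.

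Chromatin over the same genes was read from the peaks called by the authors in each library, within 5 kb of an annotated start. Values are CPM of a gate's ATAC counts, per kb of peak. They were mostly even, 2 for each fragment, so intervals use each count divided by 2. As a background, each KO peak that overlapped a single WT E18.5 peak, and no other, was paired with it. In Pdgfra-positive nuclei 66.7% of the 48767 such pairs above a count minimum had a KO to WT E18.5 ratio above 1, and their median ratio was 1.16. Peaks called in only 1 of the libraries were not among them. Sums over the peaks of a gene, which were called separately in each library, depended on the window. The summed ratio of Prelp was 1.22 within 5 kb of the start and 0.731 within 2 kb, and over the gene body and 5 kb beside it Dcn was at 3.08 and Bgn at 0.893. Single peaks are therefore given here. Kera had no peak at its start in any library, and its only peak within 5 kb was one of 386 bp at P5 (chr10:97603355-97603740).

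At the Dcn start, accessibility was at 34.6 in KO and at 14.6, 24.1, 43.7 and 31.3 in WT Pdgfra-positive nuclei from E14.5 to adult. The Dcn peak was 1.65-fold higher at E18.5 than at E14.5 (1.13 to 2.48), 1.82-fold higher at P5 than at E18.5 (1.41 to 2.34) and 1.44-fold higher in KO than in WT (1.05 to 1.96), while Dcn RNA was lower in KO. When scaled to the counts in start-site peaks instead, the KO to WT ratio of the Dcn peak was 1.29, and its interval spanned 1 (0.935 to 1.75). The Aspn start was at 17.7 in KO and at 14.1, 13.5, 20.0 and 5.71 in WT, with a KO to WT ratio of 1.31 (0.837 to 2.01). A peak 0.5 kb from the Lum start was at 21.7 in KO and at 14.7, 17.6, 23.9 and 24.2 in WT (KO to WT E18.5 ratio 1.23, 0.824 to 1.81). Lower RNA of Dcn, Aspn and Lum in KO was thus not met by lower counts at these peaks.

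The Fmod peak at E18.5 (chr1:134036873-134037714) held the whole Fmod promoter window printed above, and it followed the Tnmd gate as the RNA did. It was at 59.9 in Tnmd-positive nuclei against 14.9 in Pdgfra-positive nuclei without Tnmd in KO (4.02-fold, 1.80 to 8.43), at 34.4 against 6.24 at E18.5 (5.52-fold, 3.51 to 8.89) and at 48.4 against 10.7 at P5 (4.52-fold, 2.65 to 7.98). At E14.5 the 2 gates had only 2 and 40 Fmod counts. Between KO and WT E18.5 the Fmod peak had ratios of 1.51 in Pdgfra-positive (0.951 to 2.36) and 1.74 in Tnmd-positive nuclei (0.848 to 3.27), where the RNA was lower.

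Inside Prelp, peaks centred 3.4 and 5.2 kb into the gene took opposite directions in KO. The peak at 3.4 kb was at 10.9 in KO and 23.3 in WT E18.5 Pdgfra-positive nuclei, 2.14-fold lower (ratio 0.467, 0.268 to 0.768), and the intronic peak at 5.2 kb was at 28.3 and 12.6 (ratio 2.25, 1.54 to 3.26). Of the 48767 paired peaks in that comparison 10.2% were at least 2-fold higher and 3.15% at least 2-fold lower. Prelp's start, whose promoter window is printed above, was at 12.2 in KO and 16.7 in WT (ratio 0.731, 0.433 to 1.18). It had no peak at E14.5, the stage with 6 Prelp UMIs.

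The Ogn start peak (chr13:49607475-49608330 at E14.5) contained the promoter window with 4 E-boxes. It was at 19.6 in muscle-RNA-high and 15.6 in Pdgfra-positive nuclei of KO (1.25-fold, 0.764 to 2.10), and in WT at 14.6 against 7.58 at E14.5 (1.92-fold, 1.11 to 3.53), 14.4 against 9.55 at E18.5 (1.51-fold, 1.06 to 2.16) and 15.8 against 12.1 at P5 (1.31-fold, 0.850 to 2.05). In the adult it was 15.1-fold lower in muscle-RNA-high nuclei, at 2.35 against 35.5. The Aspn start, on the same chromosome, was at 0.143 of its Pdgfra-positive value in muscle-RNA-high nuclei of KO and at 0.154 to 0.178 in the 4 WT libraries. Other peaks varied. One 3.7 kb before the Bgn start was 3.22-fold higher in muscle-RNA-high nuclei at E14.5 (1.36 to 9.30) but at 0.656 in KO and at 0.817, 0.375 and 0.467 in WT at E18.5, P5 and adult, and the peak 1.1 kb into Ogn was at 0.362 at E18.5 (0.232 to 0.554). Between KO and WT E18.5 the Ogn start peak had ratios of 1.36 in muscle-RNA-high (0.937 to 1.95) and 1.64 in Pdgfra-positive nuclei (0.988 to 2.66), and the peak 1.1 kb into Ogn was 1.97-fold higher in KO muscle-RNA-high nuclei (1.10 to 3.48). In muscle-RNA-high nuclei both Ogn RNA and the counts at its start were low in the adult and higher in the other 4 libraries. The same held there for the Dcn start, at 2.26 in the adult and 4.42 to 6.39 in the others, and the Aspn start, at 0.888 and 2.17 to 3.55.

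**Figure D5:**
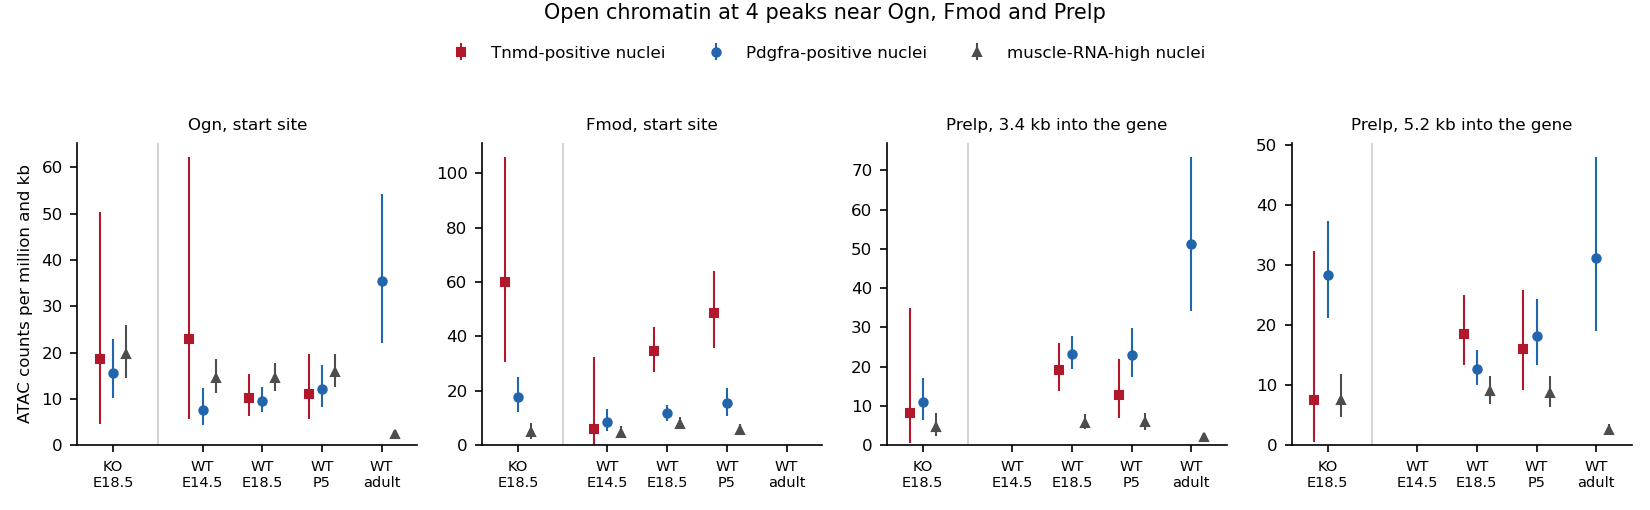
ATAC counts (CPM per kb of peak) at 4 peaks (the Ogn start, the Fmod start, and the peaks 3.4 and 5.2 kb into Prelp) by library, KO E18.5 at the left and WT stages at the right, for the gates in the legend, with exact 95% intervals on the counts divided by 2. A missing point means that no peak was called there. The Ogn start was at 2.35 in adult muscle-RNA-high nuclei and at 14.4 to 19.6 in the other libraries, and the Fmod start was highest in Tnmd-positive nuclei of KO, E18.5 and P5.

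Within the gates the members varied with 2 further properties. Nuclei with at least 2 UMIs of cycling markers were set against the rest of the Pdgfra-positive nuclei without Tnmd. Ogn was lower in cycling nuclei of KO (0.576), E18.5 (0.551) and P5 (0.577) but not of E14.5 (1.08), and Aspn was lower in all 4 (0.599 to 0.746). In Tnmd-positive nuclei Kera was at 0.255 in cycling nuclei of KO and at 0.665, 0.610 and 0.502 at E14.5, E18.5 and P5, and Fmod at 0.242 in KO and at 0.886, 0.526 and 0.546 in WT. Nuclei with a UMI of Dpp4 or Pi16, markers of one subset of fibroblast-like cells, had more Dcn in KO (1.38) and at E14.5, E18.5 and P5 (1.43, 1.44 and 1.24) and less Bgn in KO (0.731), E18.5 (0.714) and P5 (0.629). Lum was higher in them too, at 2.25 in KO and 1.73 at E18.5. Fmod was lower in them at E18.5 (0.197, 0.0699 to 0.452) and higher in KO (3.26, 1.38 to 7.39), where the KO value rested on 11 UMIs.

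The genes whose levels ran most like each member were sought over 20 sums, 4 disjoint gates in each of 5 libraries, as Pearson's r of log2(CPM + 10) among 11099 genes. The 20 points share libraries, depth and gates, so r is a description. Dcn ran closest to Fam129a (0.977), Lrrk1 and Pid1, Bgn to Col16a1 (0.957), Col1a1 (0.955) and Slc50a1, and Aspn to Col14a1 (0.984), Copz2 and Pcolce. Fmod ran closest to Col11a2 (0.958), Thbs4 and Atp6v0a4, Kera to Pls1 (0.965), Syt7 and Cacna2d2, and Lum to Dnajc1 (0.906), Loxl1 and Dpysl3. Prelp ran closest to Card10 (0.923), Pi16 and Naaa. For Ogn the leading genes were Lix1l (0.927), Serinc5 and Tet1. Collagen genes were among the 3 closest to Bgn, Aspn and Fmod, and none was among the 3 closest to Ogn, Dcn, Lum, Kera or Prelp. One of the 20 sums was the adult Tnmd-positive one of 2 nuclei. Without it Phactr1 (0.978) came before Fam129a for Dcn, Col1a1 (0.957) led for Bgn in place of Col16a1, all 3 genes of Lum gave way to Kcp (0.972), Il17d and Nrep, and Tnmd (0.956) was the second for Kera. The leading genes of Aspn, Fmod, Kera and Prelp and the 3 of Ogn were the same.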

How the data were processed

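Nuclei of 5 libraries, 1 per group, carried RNA and ATAC reads (10x Multiome). The authors ran Cell Ranger ARC 2.0.0 against mm10 with intronic reads included, and deposited raw counts of UMIs per gene and of ATAC cuts per peak, with peaks called in each library. Here a nucleus was kept if its UMIs lay between 400 and 25000, its mitochondrial share did not pass 10% and its ATAC counts did not pass 70000, and no doublets were removed. The KO matrix held 3621 barcodes, fewer than the methods state. Counts were summed per gate and library (scipy 1.17.1, pandas 2.3.3 and numpy 2.4.6 in Python 3.11.15, plots with matplotlib 3.10.9) and given as CPM with exact 95% intervals. With 1 library a group no test was run. A sum of 0 was given with the level of 3 counts. Library totals were 49913899 UMIs in KO and 21394846 to 35521496 in WT, and a gate with few UMIs (294155 in adult Pdgfra-positive nuclei) has wide intervals.

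The named genes were the 8 members in every gate, the members of each list with most UMIs, and for each member the 3 genes of highest r among genes with at least 500 UMIs, without mitochondrial, ribosomal, Gm and Rik genes. The members and lists were chosen with earlier results of these data known. The scripts were tested on simulated data. Sequences are RefSeq's. The alternatives tried, 12 for each count, changed filters, gates, scaling or depth. Whether counting used strand is not stated in the sources used here.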

Additional observations from a re-analysis of the deposited data

Results flagged for a closer look

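For 3 members the same contrast went in opposite directions in different gates. The difference between the gates was not tested, since each group was 1 library. Kera at E18.5 over E14.5 had ratios of 2.90 in Pdgfra-positive, 12.7 in muscle-RNA-high and 0.385 in other nuclei below the muscle cut, the last 2 from as few as 3 and 7 UMIs. Without the nuclei that were also Tnmd-positive, the Kera ratio in Pdgfra-positive nuclei was 0.782, below 1 as in those other nuclei. Prelp in the adult over P5 was at 0.217 in muscle-RNA-high nuclei (10 adult UMIs) and at 2.89 in other nuclei below the cut (54 adult UMIs). Ogn in KO over WT E18.5 was at 1.55 in Pdgfra-positive, 1.79 in Tnmd-positive and 2.05 in muscle-RNA-high nuclei, but at 0.749 in other nuclei below the cut. In that last gate mesenchymal markers were lower in KO (1826 against 3875 CPM), and Ogn UMIs per Dcn UMI were higher (0.992 against 0.402).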

How the results depend on the processing

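No paired analysis was possible because each group was 1 library. The adult Tnmd-positive gate held 2 nuclei, so its comparison with P5 was not run. Under the 12 alternatives the counts of members at least 2-fold apart stayed within 1.5 times of their value, except as follows. For KO against WT in Pdgfra-positive nuclei (3 members) the count was 5 with no filter on nuclei, and 0 when nuclei with markers of other cell types were left out, with or without the MuSC list. Members under 100 UMIs are not counted, and leaving out nuclei puts more of them there. In Tnmd-positive nuclei (2 members) it was 1 with a minimum of 400 ATAC counts, at least 2 marker UMIs, cycling nuclei left out, scaling to the median ratio, thinning to 1000 UMIs, or other cell types left out without the MuSC list, all of them Bgn. It was also 1 (Ogn) with both-marker nuclei left out, and 0 with other cell types left out. For E18.5 against E14.5 the Pdgfra-positive count (6) was 3 with other cell types left out, with or without the MuSC list, and 3 when thinned, and the Tnmd-positive count (3) was 6 with the muscle cut doubled. For P5 against E18.5 the Pdgfra-positive count (0) was 1 (Dcn) with at least 2 marker UMIs or with scaling, and the Tnmd-positive count (1) was 2 with other cell types left out, with or without the MuSC list. The Pdgfra-positive count of adult against P5 (3) was 1 when thinned. The count of Tnmd-positive against Pdgfra-positive nuclei at E18.5 (4) was 2 with other cell types left out, with or without the MuSC list, and 2 when thinned. Kera turned round for E18.5 against E14.5 in Pdgfra-positive nuclei, to 0.782 with both-marker nuclei left out and 0.915 when thinned (7 UMIs in each). In KO Pdgfra-positive nuclei 7 members kept their direction in all 12 alternatives and Kera in 11, with Ogn from 1.26 to 1.91. In Tnmd-positive nuclei Ogn (1.04 to 2.32), Bgn and Fmod kept theirs in all 12, and Dcn and Aspn in 6. Low UMI sums limit Prelp, Kera and all adult values. The choice to leave out the MuSC list was made after seeing the data.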

Other observations

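Outside the 2 marker gates, nuclei with at least 3 UMIs of another cell type's markers held part of the SLRP RNA. In the adult, nuclei with adipocyte markers (114) had Prelp at 81.0 CPM (56.7 to 112), and held 36 of the 54 Prelp UMIs counted among other nuclei below the muscle cut. The same nuclei had Prelp at 30.0 CPM at P5 (16 UMIs) and at 8.47 CPM in KO and 6.50 CPM in WT E18.5. In nuclei with chondrocyte markers, Fmod was at 3.13 CPM in KO (1 UMI), against 82.9 CPM in WT E18.5 (13 UMIs), and at 162.5 CPM at P5. Prelp was at 3.13 CPM in KO (1 UMI) and at 63.8 CPM in WT E18.5 (10 UMIs) in them, and Bgn at 18.8 CPM in KO (6 UMIs) and 204 CPM in WT E18.5.

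Mkx encodes a homeobox factor of tendon cells. Nuclei with at least 2 Mkx UMIs and no Pdgfra or Tnmd UMI numbered 28 in KO and 93, 27, 23 and 14 in WT from E14.5 to adult. In them Fmod was at 23.6 CPM in KO and at 8.13, 45.9, 158 and 281 CPM in WT, the adult value from 11 UMIs, and Dcn was at 201 CPM in KO and at 146, 286, 771 and 1863 CPM in WT. Aspn had 0 UMIs in those 14 adult nuclei.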
